A study of Mus musculus with 5 samples.

Results

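Levels were compared for 10 genes that hypoxia-inducible factors are known to switch on and that lie outside glycolysis: Bnip3, Gabarapl1, Ankrd37, Ndrg1, P4ha1, Car9, Car12, Adm, Mif and Ddit4. They were taken by symbol from the 31053 genes of the count matrices, and all 10 were found. Droplet-based single-cell RNA-seq had been run on breast tumors of female MMTV-PyMT animals of the strain FVB/N-Tg(MMTV-PyVT)634Mul/J, whose mammary epithelium expresses polyoma middle T, an oncogene, from a mammary tumor virus promoter. From 7 weeks of age the mice received 5 mg/kg intraperitoneally, given 2 times weekly over 6 weeks, of either the anti-VEGF-A antibody B20-4.1.1 (B20) or the isotype mouse IgG2a clone C1.18.4. Viable (DAPI-) cells of 3 tumors, each from 1 mouse, were tagged with oligos and loaded as 1 pool, so 6 isotype tumors came from 2 pools and 9 B20 tumors from 3 pools. The tumor was the replicate.

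Cells that lack oxygen keep hypoxia-inducible factor (HIF) alpha subunits, which are otherwise hydroxylated and degraded, and the stabilized factor binds short DNA elements with the core ACGTG or GCGTG. Beside the glycolytic enzymes, its targets act in the clearance of mitochondria (Bnip3, Gabarapl1), the folding of collagen (P4ha1), pH control (Car9, Car12), signaling to vessels and leukocytes (Adm, Mif) and the restraint of growth (Ddit4, Ndrg1). Blocking VEGF-A removes a survival signal from tumor vessels, and the study asked how hypoxia that follows such treatment alters breast tumors. By a stain for hypoxia, the study split B20 tumors into high and low hypoxia, to separate tumors whose hypoxia rose from those that corrected it. The sample labels do not give this class. All B20 tumors were therefore kept together and may mix high and low hypoxia tumors, and a difference between these classes was not tested.

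Of 30340 cells in the files, 19533 passed the study's UMI limits (at least 2500 unique molecular identifiers, which count transcripts, and below an upper limit against doublets) and held at most 20% mitochondrial UMIs. The UMI minimum removed 39.4% of isotype and 24.4% of B20 cells. The total was 4014509 to 23726246 UMIs per tumor, no barcode was shared by tumors of a pool, and 94 of 30246 barcodes occurred in more than 1 pool. Cells were assigned to classes by fixed marker genes, none of which was among the 10 genes. This gave 13365 epithelial-like, 2623 T-like and 1453 macrophage-like cells, and 17 to 166 cells in each of 6 other classes. The epithelial marker list summed to 62.4 to 81.3 UMIs per 10000 in epithelial-like cells of isotype tumors and 81.8 to 121.5 in those of B20 tumors. Macrophage markers summed to 119 to 185.1 UMIs per 10000 in macrophage-like cells. Isotype pool 1 stood apart, with a median of 5.93% to 6.09% mitochondrial UMIs per epithelial-like cell against 2.49% to 3.69% in every other tumor. In 3 B20 tumors (pool 1 tumor 3, pool 2 tumors 1 and 3) T-like cells made up over 50% of the kept cells and 77 to 286 epithelial-like cells remained. Since each pool held 1 treatment, pool and treatment cannot be told apart by a fixed term, and results are therefore given with and without the pools they rest on.

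Upstream sequences were available for 9 of the 10 genes in the RefSeq table for GRCm38.p6, the assembly that mm10 denotes, as the 250 bases before the annotated start. Both strands were searched for the HIF core written as ACGTG and as GCGTG, and matches that overlap were each counted. Of these 9 genes, 6 held at least 1 match (Ankrd37, Bnip3, Adm, Car9, P4ha1, Ddit4), and Car12, Mif and Gabarapl1 held none in this window. Over all 32851 promoters of the table, 16.6% held ACGTG, 28.2% GCGTG and 38.6% either. The windows of Ankrd37 and Bnip3, whose levels differed most between the treatments among genes with non-overlapping groups, and of the carbonic anhydrase pair Car9 and Car12, whose fitted differences had opposite signs, are printed 5′ to 3′ with the matches in capitals. The sequence is that of the reference strain, not of these mice. The starts are those of RefSeq, whereas the gene spans given below are those of another annotation, GENCODE. The Ankrd37 window lies wholly within its GENCODE span, and the Bnip3 and Car9 windows in part within theirs.
Ankrd37, chr8:45999851-46000100, minus strand: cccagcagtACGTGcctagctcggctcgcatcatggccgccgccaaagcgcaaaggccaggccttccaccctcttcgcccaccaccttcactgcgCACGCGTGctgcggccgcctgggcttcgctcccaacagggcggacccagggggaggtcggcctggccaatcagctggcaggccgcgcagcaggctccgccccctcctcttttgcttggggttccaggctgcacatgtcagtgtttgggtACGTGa
Bnip3, chr7:138909507-138909756, minus strand: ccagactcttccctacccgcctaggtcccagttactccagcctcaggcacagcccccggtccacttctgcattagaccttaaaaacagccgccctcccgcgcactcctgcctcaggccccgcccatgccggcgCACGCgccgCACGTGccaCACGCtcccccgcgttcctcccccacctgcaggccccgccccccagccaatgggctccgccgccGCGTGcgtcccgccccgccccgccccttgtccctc
Car9, chr4:43506776-43507025, plus strand: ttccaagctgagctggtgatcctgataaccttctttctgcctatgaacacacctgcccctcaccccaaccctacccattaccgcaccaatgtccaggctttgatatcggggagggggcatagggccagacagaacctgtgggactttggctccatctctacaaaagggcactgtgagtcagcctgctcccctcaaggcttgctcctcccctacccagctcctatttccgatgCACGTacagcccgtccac
Car12, chr9:66713436-66713685, plus strand: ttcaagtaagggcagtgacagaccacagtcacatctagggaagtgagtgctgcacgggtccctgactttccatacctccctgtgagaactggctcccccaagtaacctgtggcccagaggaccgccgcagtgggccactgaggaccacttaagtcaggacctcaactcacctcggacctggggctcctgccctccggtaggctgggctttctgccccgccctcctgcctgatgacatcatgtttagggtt
The Ankrd37 window held 4 matches and the Bnip3 window 5, where a palindromic CACGTG counts on both strands. Car9 held 1 match, a CACGT whose first base lies 18 bases before the RefSeq start. A match is a stretch of letters and not a measured binding site, and no match says only that these letters are not in the window.

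In epithelial-like cells, 6 of the 10 genes were higher under B20 and 1 was lower at an adjusted p under 0.05 (edgeR quasi-likelihood test on UMI sums per tumor). Bnip3, Gabarapl1, Ankrd37, Ndrg1, P4ha1 and Adm rose, Car12 fell, and Car9, Mif and Ddit4 did not pass the test. Of all 12220 genes tested in these cells, 15.1% were called, 7.78% as higher and 7.27% as lower. The median log2 fold change was 0.57 over the 10 genes and -0.01 over all genes tested. For 3 of the 10 genes (Bnip3, Gabarapl1, Ankrd37), every B20 tumor lay above every isotype tumor, which held for 1.48% of all genes tested. These 3 were also those called when the pool entered as a random block (limma-voom), a fit that called 40 genes in all. No member changed the sign of its epithelial fold change under any of the 16 alternatives, and the same 7 members were called without the 3 T-rich tumors. With library size alone as the scaling, 700 genes were higher and 1227 lower, against 951 and 889. With the counts summed per pool, 2 pools against 3, edgeR called no gene, 1376 genes had an unadjusted p under 0.05, and the smallest adjusted p among the 10 genes was 0.225.

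**Figure D1:**
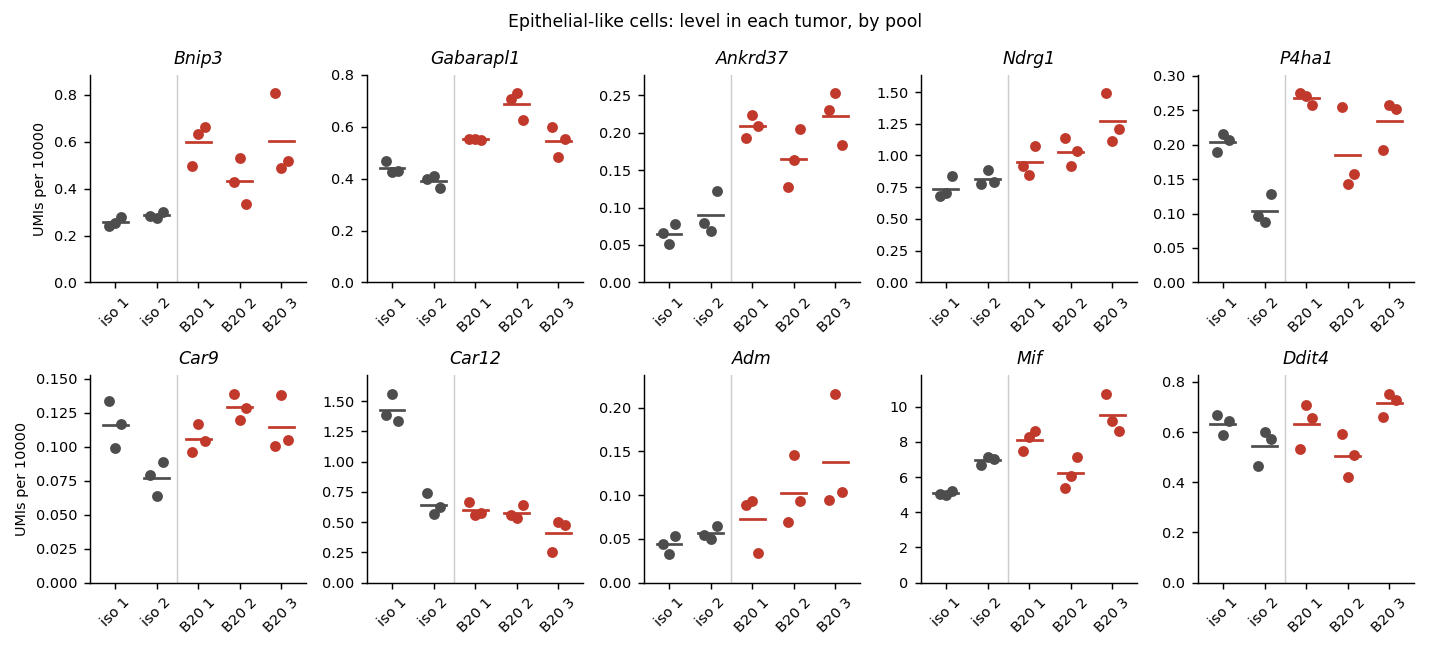
UMIs per 10000 of each of the 10 genes in epithelial-like cells (vertical axis, from 0), 1 point per tumor and a line at the mean of each pool, for 2 isotype pools (grey) and 3 B20 pools (red). All B20 points lie above all isotype points for Bnip3, Gabarapl1 and Ankrd37, while for Car12 isotype pool 1 lies above every other pool.

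Bnip3 (chr7:138890836-138909519, minus strand) encodes a protein of the outer mitochondrial membrane that marks mitochondria for autophagy. Its level in isotype tumors was 0.241 to 0.301 UMIs per 10000 with a median of 0.277, and in B20 tumors 0.333 to 0.807 with a median of 0.519. The groups did not overlap, and the lowest B20 value came from a T-rich tumor of pool 2. The log2 fold change was 1.11 ± 0.16 (SE, adjusted p = 0.000732). It was 0.94 against isotype pool 2 alone (adjusted p = 0.0222) and 1.33 against isotype pool 1 alone (adjusted p = 0.000155). With each cell thinned to 2500 UMIs, a median of 5.99% of isotype and 10.3% of B20 epithelial-like cells had a Bnip3 UMI. In T-like cells the thinned share was 2.82%. Median depth before thinning was 8736 UMIs per epithelial-like and 4069 per T-like cell.

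Gabarapl1 (chr6:129533160-129542346, plus strand), an ATG8-family protein to which BNIP3 can bind on the growing autophagosome, had the smallest standard error of the 10 genes. Isotype tumors held 0.365 to 0.468 UMIs per 10000 (median 0.417) and B20 tumors 0.485 to 0.728 (median 0.552). The groups did not overlap, and the pool means of both isotype pools (0.441 and 0.390) lay below those of the 3 B20 pools (0.552, 0.687 and 0.545). The log2 fold change of 0.59 ± 0.08 (SE, adjusted p = 0.000697) ranged from 0.50 to 0.65 over the 16 alternative settings and was called in 15 of them. The 2 isotype pools did not differ detectably for this gene (log2 0.09, adjusted p = 0.264), whereas 56.1% of genes tested differed between these pools. The Gabarapl1 span overlaps Gm44243 on the same strand, which is not among the genes of the count matrices. Whether reads of Gm44243 were counted as Gabarapl1 was not tested.

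Ankrd37 (chr8:45996902-46005707, minus strand) encodes a small ankyrin-repeat protein whose gene is a well-known HIF target. It overlaps Ufsp2 and Lrp2bp on the other strand, as Bnip3, Ndrg1, Adm and Car9 overlap predicted genes there. In isotype tumors Ankrd37 held 0.0519 to 0.122 UMIs per 10000 with a median of 0.0734, and in B20 tumors 0.127 to 0.253 with a median of 0.205. The highest isotype and the lowest B20 tumor lay close together without overlapping. Its log2 fold change of 1.44 ± 0.19 (SE, adjusted p = 0.000449) was the largest among the 10 genes. Against isotype pool 2 alone it was 1.14 (adjusted p = 0.0111), and isotype pool 2 itself was above isotype pool 1 (log2 0.77, adjusted p = 0.0180). The thinned share of epithelial-like cells with an Ankrd37 UMI was a median of 1.77% in isotype and 4.40% in B20 tumors. It was 2.33% over the T-like cells of both treatments. Over the pooled isotype cells alone, the shares lay close together, at 1.93% of epithelial-like and 1.80% of T-like cells.

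Ndrg1 (chr15:66929318-66969640, minus strand), a cytoplasmic stress-response protein with growth-restraining roles, was measured at 0.677 to 0.888 UMIs per 10000 in isotype tumors (median 0.782). B20 tumors held 0.848 to 1.49 (median 1.08). 8 of 9 B20 tumors were above the highest isotype tumor. The log2 fold change was 0.55 ± 0.13 (SE, adjusted p = 0.0115). Without isotype pool 1 it was 0.38 and was not called (adjusted p = 0.173), and with the pool as a random block the adjusted p was 0.182.

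P4ha1 (chr10:59323296-59373304, plus strand) encodes the catalytic subunit of collagen prolyl 4-hydroxylase, the enzyme that stabilizes the collagen triple helix. Isotype tumors held 0.0874 to 0.215 UMIs per 10000 (median 0.159) and B20 tumors 0.142 to 0.275 (median 0.255). The isotype pools lay apart, with means of 0.204 in pool 1 and 0.104 in pool 2, and B20 pool 2 (0.185) fell between them. The overall log2 fold change was 0.69 ± 0.18 (SE, adjusted p = 0.0180). It was 1.10 against isotype pool 2 alone (adjusted p = 0.0118) and 0.38 against isotype pool 1 alone (adjusted p = 0.0803). P4ha1 was called in 9 of the 16 alternatives.

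The paired carbonic anhydrases, membrane enzymes that hydrate carbon dioxide at the cell surface, did not move alike. Car9 (chr4:43506966-43513729, plus strand) held 0.0638 to 0.133 UMIs per 10000 in isotype tumors (median 0.0937) and 0.0958 to 0.139 in B20 tumors (median 0.117). The groups overlapped, and isotype pool 1 (mean 0.116) lay at the level of the B20 pools (0.106 to 0.129). Its log2 difference of 0.34 ± 0.13 (SE) missed the threshold (adjusted p = 0.0737). Against isotype pool 2 alone it was 0.52 (adjusted p = 0.0478), the only one of the 16 alternatives in which Car9 was called.

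Car12 (chr9:66713686-66766845, plus strand) was the only one of the 10 genes called lower under B20. Isotype tumors held 0.569 to 1.56 UMIs per 10000 (median 1.04) and B20 tumors 0.256 to 0.663 (median 0.556). No B20 tumor was above the isotype median, but the groups overlapped. The log2 fold change was -0.87 ± 0.20 (SE, adjusted p = 0.00898). The contrast rested on isotype pool 1, whose mean of 1.43 stood above 0.644 in isotype pool 2 and 0.412 to 0.601 in the B20 pools. Without isotype pool 1 the log2 fold change was -0.34 (adjusted p = 0.303), and the difference between the 2 isotype pools was as large as the treatment contrast (log2 -0.88, adjusted p = 2.72e-05). This is the pool with the raised mitochondrial share, and the part of that share in the Car12 level was not tested.

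Adm (chr7:110627661-110629820, plus strand) encodes adrenomedullin, a secreted peptide that dilates vessels and supports their growth. It was sparse, with 6 to 130 UMIs per tumor in B20 and 41 to 121 in isotype epithelial-like cells. Isotype tumors held 0.0332 to 0.0645 UMIs per 10000 (median 0.0519) and B20 tumors 0.0338 to 0.216 (median 0.0938). All B20 tumors but pool 1 tumor 3, a T-rich tumor, were above the highest isotype tumor. The log2 fold change was 1.17 ± 0.27 (SE, adjusted p = 0.0106). It was 0.91 without isotype pool 1, where the call was lost (adjusted p = 0.141), and 1.36 without the 3 T-rich tumors (adjusted p = 0.00648).

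Mif (chr10:75859353-75860240, minus strand), a secreted cytokine that acts on leukocytes through CD74 and CXCR receptors, was found in most epithelial-like cells. Isotype tumors held 5.01 to 7.16 UMIs per 10000 (median 5.95) and B20 tumors 5.39 to 10.7 (median 8.28). 6 of 9 B20 tumors were above the highest isotype tumor. The log2 difference of 0.47 ± 0.17 (SE) did not pass the test (adjusted p = 0.0698) but passed in 4 of 16 alternative settings. It was 0.85 against isotype pool 1 alone (adjusted p = 0.00193) and 0.17 against isotype pool 2 alone (adjusted p = 0.630), and the isotype pools themselves differed by 0.72 (adjusted p = 2.34e-06). Reads that fit Mif and an annotated Mif pseudogene equally well could have been lost in the authors' counting.

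Ddit4 (chr10:59949669-59951834, minus strand), an inhibitor of mTORC1 that is induced by hypoxia and by other stresses, showed no detectable difference. Isotype tumors held 0.466 to 0.667 UMIs per 10000 (median 0.595) and B20 tumors 0.419 to 0.753 (median 0.658). The log2 difference was 0.17 ± 0.12 (SE, adjusted p = 0.340), and none of the 16 alternatives called it.

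**Figure D2:**
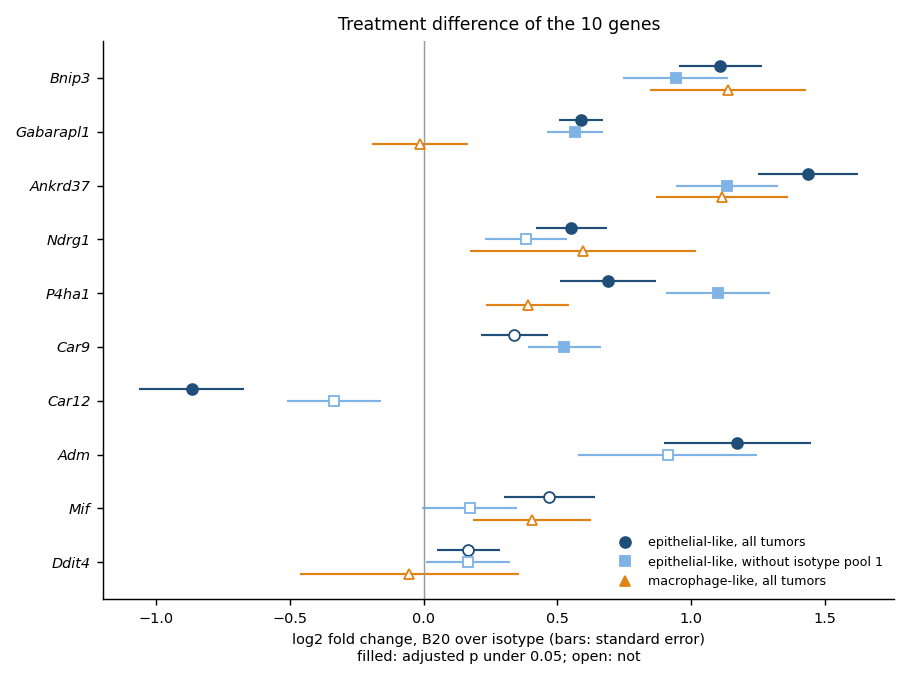
Log2 fold change of B20 over isotype (horizontal axis, bars are standard errors) for each of the 10 genes in epithelial-like cells with all tumors, in epithelial-like cells without isotype pool 1, and in macrophage-like cells for the 7 genes tested there; filled symbols have an adjusted p under 0.05. Bnip3, Gabarapl1, Ankrd37 and P4ha1 stay filled without isotype pool 1, while Ndrg1, Adm and Car12 do not and Car9 becomes filled.

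Without isotype pool 1, 5 of the 10 genes had an adjusted p under 0.05 in epithelial-like cells, where 413 genes were called in all. Epithelial-like cells could hold at most 2 detected markers of any other class, so low sums of such markers were in part set by the gate. The most frequent macrophage marker was still detected in 54.4% of epithelial-like cells. Macrophage markers summed to 1.56 to 2.47 UMIs per 10000 in isotype and 1.04 to 2.43 in B20 epithelial-like cells, and fibroblast markers to at most 0.155 in either group. T markers summed to 0.0715 to 0.115 in isotype and 0.111 to 0.386 in B20 tumors, and neutrophil markers to 0.677 to 1.69 and 0.811 to 3.76. The part of these markers in the differences above was not tested. A list of 10 genes known to rise during tissue dissociation summed to 45.2 to 56.9 UMIs per 10000 in isotype and 45.9 to 75.0 in B20 tumors. Of this list, only Fosb was called (log2 -0.72, lower under B20). After thinning, an epithelial-like cell held UMIs of 1.31 to 1.43 of the 10 genes on average in isotype and 1.41 to 1.71 in B20 tumors. Cells with UMIs of 5 or more of the genes were a median of 0.478% and 1.01% of epithelial-like cells.

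The 10 genes were next compared between cell classes of the same tumor, with the tumor as a block. Macrophage-like cells carried more P4ha1, Bnip3 and Ankrd37 than epithelial-like cells, and epithelial-like cells more Car12, Ndrg1, Ddit4, Gabarapl1 and Mif. Of the 9 genes tested over 14 tumors (20 or more cells per class), 8 were called, 5 as higher and 3 as lower in epithelial-like cells. Here 78.3% of 9487 genes were called, 40.8% as higher and 37.6% as lower, so the count says little about the 10 genes and the directions and sizes carry the description. Against T-like cells 8 of 9 genes were called, where 77.4% of all genes tested were, and between macrophage-like and T-like cells 5 of 7, where 69.5% were.

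Of the genes higher in macrophage-like than in epithelial-like cells, P4ha1 had the widest gap. Its level in macrophage-like cells was 0.856 to 1.86 UMIs per 10000 in isotype tumors and 1.22 to 2.06 in B20 tumors. Every tumor had the higher level in macrophage-like cells, and the log2 difference (epithelial minus macrophage) was -3.21 ± 0.07 (SE, adjusted p = 4.11e-22). Epithelial-like cells held 83.8% of all UMIs of the gated cells but 48.2% of those of P4ha1, while macrophage-like cells, with 6.74% of all UMIs, held 35.1%. T-like cells were also above epithelial-like cells (log2 -1.28, epithelial minus T, adjusted p = 1.70e-09), in 14 of 15 tumors. In fibroblast-like cells, the collagen producers, 102 P4ha1 UMIs were counted in 59 cells, which is 1.75 per 10000 with an exact Poisson interval of 1.43 to 2.13 (95%, counting error only).

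Bnip3 and Ankrd37 shared the order macrophage-like above epithelial-like. For Bnip3 the log2 difference was -1.68 ± 0.14 (SE, adjusted p = 1.33e-10), with the higher level in macrophage-like cells in 13 of 14 tumors. Ankrd37 differed by -1.55 ± 0.13 (SE, adjusted p = 9.18e-11), in 14 of 14 tumors. Against T-like cells, macrophage-like cells were higher by 2.94 for Bnip3 (adjusted p = 3.74e-12) and by 1.95 for Ankrd37 (adjusted p = 8.03e-07). Epithelial-like cells were above T-like cells for Bnip3 (log2 1.44, adjusted p = 8.44e-09), and for Ankrd37 this difference missed the threshold (log2 0.47, adjusted p = 0.0713). The 99 neutrophil-like cells held 41 Ankrd37 UMIs (1.10 per 10000, interval 0.788 to 1.49) and 49 Bnip3 UMIs (1.31, interval 0.971 to 1.73). For Ankrd37 the neutrophil-like level lay above the 0.344 per 10000 of all macrophage-like cells (interval 0.309 to 0.381). Of the 99 neutrophil-like cells, 19, 25 and 21 came from the 3 tumors of isotype pool 1. The intervals cover counting error over pooled cells, and this order was not tested over tumors.

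Car12 and Ndrg1 had the reverse order, with the macrophage-like level below the epithelial-like one. The Car12 level of epithelial-like cells exceeded that of macrophage-like cells by 4.65 ± 0.18 on the log2 scale (SE, adjusted p = 2.45e-17), and 98.6% of its UMIs in gated cells were epithelial. Ndrg1 differed by 2.28 ± 0.18 (SE, adjusted p = 4.38e-11), with 96.6% of its UMIs in epithelial-like cells, which held 83.8% of all UMIs. The Ndrg1 level of epithelial-like cells was 0.919 UMIs per 10000, and some small classes held values near it. It stood at 0.788 in 61 dendritic-like cells (exact Poisson interval 0.563 to 1.07), at 0.866 in 17 endothelial-like cells (0.374 to 1.71) and at 0.618 in 59 fibroblast-like cells, whose interval of 0.433 to 0.856 lay below the epithelial level. These intervals cover counting error over pooled cells and not the spread between tumors. Relative to macrophage-like cells, Car12 and Ndrg1 were higher in epithelial-like cells in every one of the 14 tumors. The epithelial marker list stood in macrophage-like cells at 1.92% and in T-like cells at 3.54% of its epithelial level. Cells entered these classes only with at most 3 epithelial markers detected. The gate thus held these shares down, and they cannot gauge how much free RNA the cells carried. Car12 stood at 4.64% and 9.83% of its epithelial level in these classes and Ndrg1 at 18.6% and 12.9%.

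Car9 did not follow Car12. Its level in macrophage-like cells was 0.0628 to 0.120 UMIs per 10000 in isotype tumors and 0.0739 to 0.288 in B20 tumors, and the difference from epithelial-like cells was -0.19 ± 0.16 on the log2 scale (SE, adjusted p = 0.270). The 117 Car9 and 38 Car12 UMIs of macrophage-like cells compare with 1331 Car9 and 10177 Car12 UMIs in epithelial-like cells. Per 10000 UMIs, macrophage-like cells thus stood at 109% of the epithelial level for Car9, against 4.64% for Car12. The epithelial marker list stood at 1.92%, a share that the gate held down. T-like cells held 16 Car9 UMIs in 2623 cells, fewer than epithelial-like cells in 15 of 15 tumors (log2 2.86, epithelial minus T, adjusted p = 5.85e-07).

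**Figure D3:**
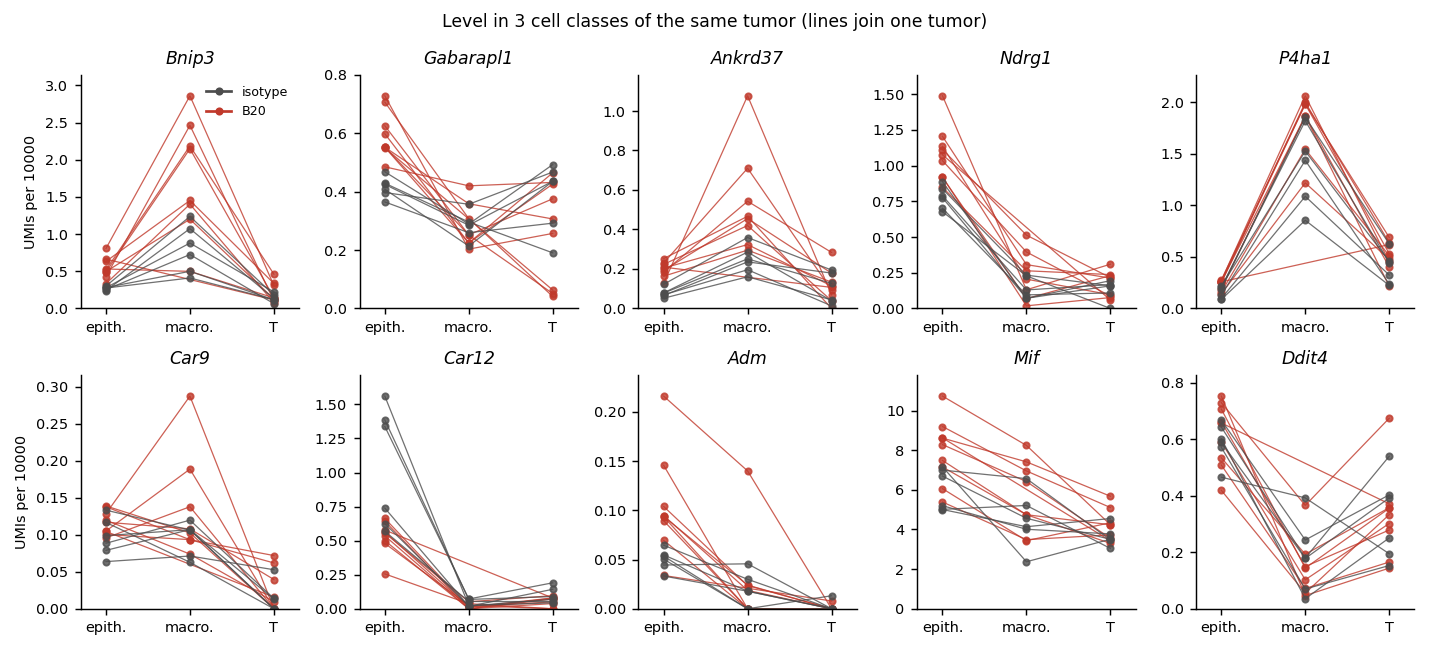
UMIs per 10000 of each gene (vertical axis, from 0) in epithelial-like, macrophage-like and T-like cells, with a line joining the classes of 1 tumor (isotype grey, B20 red). B20 pool 1 tumor 3 had under 20 macrophage-like cells and its line joins epithelial-like and T-like cells directly. P4ha1, Bnip3 and Ankrd37 peak in macrophage-like cells, and Car12 and Ndrg1 in epithelial-like cells.

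Of the others, Ddit4 was lowest in macrophage-like cells among the 3 classes tested, below epithelial-like cells (log2 1.71 ± 0.18, epithelial minus macrophage, SE, adjusted p = 5.98e-09) and below T-like cells (log2 -0.96, macrophage minus T, adjusted p = 0.000404). In 59 fibroblast-like cells Ddit4 stood at 0.0515 UMIs per 10000, from 3 UMIs. Gabarapl1 of epithelial-like cells exceeded that of macrophage-like cells by 0.74 ± 0.11 (SE, adjusted p = 2.43e-06). Mif exceeded it by 0.39 ± 0.09 (SE, adjusted p = 0.000601). Adm did not pass the filter on low counts, so its differences between classes were not tested. By tumor, its epithelial-like level exceeded the macrophage-like level in 13 of 14 tumors and the T-like level in 15 of 15. Macrophage-like cells held 21 Adm UMIs and T-like cells 3, whereas 59 fibroblast-like cells held 54 (0.927 per 10000, interval 0.697 to 1.21) against 0.0764 per 10000 in epithelial-like cells. Of those 59 cells 50 came from B20 tumors, 24 of them from 1 tumor, so the treatments could not be compared in fibroblast-like cells.

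The treatment contrast within macrophage-like cells, 6 isotype against 8 B20 tumors, called 3 of 6659 genes (0.0451%) and none of the 7 members that had enough UMIs (Adm, Car9 and Car12 did not), while 686 genes had an unadjusted p under 0.05. Ankrd37 lay at 0.160 to 0.359 UMIs per 10000 in isotype (median 0.244) and 0.296 to 1.08 in B20 macrophage-like cells (median 0.461). Of the 8 B20 tumors 6 were above the highest isotype tumor. Its log2 difference of 1.12 ± 0.25 (SE) had an unadjusted p of 0.000215 and an adjusted p of 0.0992. For Bnip3 the isotype range was 0.410 to 1.24 (median 0.802) and the B20 range 0.499 to 2.86 (median 1.80), with a log2 difference of 1.14 ± 0.29 (SE, adjusted p = 0.157). DESeq2 called both genes, with adjusted p of 0.00876 for Ankrd37 and 0.0241 for Bnip3, in a fit that called 37 genes. Both were also called by edgeR without the filter on low counts (adjusted p = 0.0261 for each).

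P4ha1 was higher by 0.39 ± 0.16 in B20 macrophage-like cells (SE, adjusted p = 0.399). Gabarapl1 lay at 0.214 to 0.357 UMIs per 10000 in isotype and 0.203 to 0.420 in B20 macrophage-like cells, a log2 difference of -0.01 ± 0.18 (SE, adjusted p = 0.994). Ndrg1 (0.60), Mif (0.40) and Ddit4 (-0.05) did not pass either. The difference between the 2 classes' treatment effects was tested directly with the tumor as a block. This test called 8 of 10481 genes (0.0763%) and none of the 10 members. The largest departure in terms of p was Gabarapl1, whose effect in macrophage-like cells was lower by 0.62 on the log2 scale than that in epithelial-like cells (unadjusted p = 0.00436, adjusted p = 0.244). For Bnip3 the effects of the 2 classes differed by -0.02 ± 0.27 (SE).

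T-like cells gave 1 called gene of 5845 (0.0171%), the glycolytic enzyme gene Aldoa, and 958 genes with an unadjusted p under 0.05. Of the 10 members, 4 had enough UMIs and none was called. P4ha1 held 0.224 to 0.627 UMIs per 10000 in isotype and 0.216 to 0.690 in B20 T-like cells (log2 0.73, adjusted p = 0.165). Without B20 pool 3 its adjusted p was 0.0442. Gabarapl1 was at 0.0632, 0.0411 and 0.0512 UMIs per 10000 in the T-like cells of the 3 T-rich B20 tumors, below the 0.191 to 0.493 of the 6 isotype tumors and the 0.257 to 0.465 of the other B20 tumors. In those same T-rich tumors P4ha1 held 0.512 to 0.638 UMIs per 10000 in T-like cells. Their T-like cells also held other marker levels. The summed NK markers were at 0.498, 0.891 and 0.551 UMIs per 10000 against 2.55 to 4.78 in the other 12 tumors, and the summed dendritic markers were at 2.22, 2.83 and 4.61 against 0.169 to 1.30. The part of these markers in the Gabarapl1 level was not tested.

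Genes that share a process with the members were read from fixed lists in epithelial-like cells. Among 27 tested hypoxia-response genes outside glycolysis that are not members, 11 rose, none fell and 16 did not pass, with a median log2 fold change of 0.29. The largest were Stc2 (1.46), a secreted glycoprotein, Ak4 (1.40), a mitochondrial adenylate kinase, P4ha2 (1.09) and Vegfa (0.75), the ligand that the antibody binds. Stc2 held 0.0555 to 0.137 UMIs per 10000 in isotype (median 0.121) and 0.114 to 0.927 in B20 tumors (median 0.153), so its medians lay closer than its fitted difference, and it was called in 9 of 16 alternative settings. Vegfa held 0.242 to 0.366 UMIs per 10000 in isotype and 0.364 to 0.578 in B20 tumors. Of 18 tested glycolysis genes 13 rose and none fell, with a median of 0.49. These included Slc16a3 (2.21), which exports lactate, Pgk1 (0.92), Gapdh (0.75) and Pfkfb3 (0.75). These counts come from the fit without the pool. With the pool as a random block 3 glycolysis genes (Gapdh, Pgk1 and Tpi1) were still called, as was Sqstm1 of the autophagy list, but no gene of the other lists, and without isotype pool 1 the calls were 7 glycolysis and 4 other hypoxia-response genes.

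Among 10 partners in mitophagy and autophagy, 3 rose, 1 fell and 6 did not pass. Sqstm1 (0.74), a cargo receptor, held 1.04 to 1.23 UMIs per 10000 in isotype and 1.61 to 2.11 in B20 tumors. Bnip3l (0.49), the close relative of Bnip3, and Gabarap (0.46) rose, and Ulk1 (-0.34), the kinase that starts autophagy, fell. Ulk1 was called in 10 of 16 alternatives, and Bnip3l and Gabarap in 13 each. Without isotype pool 1, none of these 3 was called and Sqstm1 alone of the list was. The list's median log2 fold change was then -0.04, against 0.22 with all tumors. Bnip3l also stands in the list of other hypoxia-response genes. Among 6 tested genes of collagen hydroxylation and folding P4ha2 alone was called, and the list's median was -0.03. P4ha2 held 0.0325 to 0.0547 UMIs per 10000 under isotype (median 0.0453) and 0.0526 to 0.202 under B20 (median 0.0638). Its medians lay closer than its fitted difference. P4ha2 was called in 12 of 16 alternatives, and not without isotype pool 1 or after thinning.

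Of 9 tested carbonic anhydrase and acid-base transport genes, 1 rose (Slc16a3, also in the glycolysis list) and 1 fell. The latter was Car2 (-0.70), a cytosolic carbonic anhydrase, at 0.513 to 0.813 UMIs per 10000 in isotype and 0.174 to 0.628 in B20 tumors. Car2 was called in 9 of 16 alternatives, and not when either isotype pool was left out. Of the adrenomedullin list 2 genes had enough UMIs, and the 1 called was not a receptor part but the related ligand gene Adm2 (2.48), at no more than 0.0305 UMIs per 10000 in any tumor. Among 5 tested MIF receptor and homolog genes Ackr3 (1.05), an atypical chemokine receptor, rose. In the list around Ddit4, 4 of 13 genes rose and 1, Sesn3, fell. Sesn3 was called lower in 13 of 16 alternatives, with log2 fold changes of -0.58 to -0.27 over all 16. Chac1 (1.15), Txnip (0.62), Ddit4l (0.51) and Ddit3 (0.51), genes of stress responses and of mTORC1 restraint, rose while Ddit4 itself did not pass. Chac1 was called in only 5 of 14 alternatives and Ddit4l in 6 of 16. Chac1 held no more than 0.0246 UMIs per 10000 in any tumor. Neither of the 2 tested relatives of Ndrg1 was called.

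**Figure D4:**
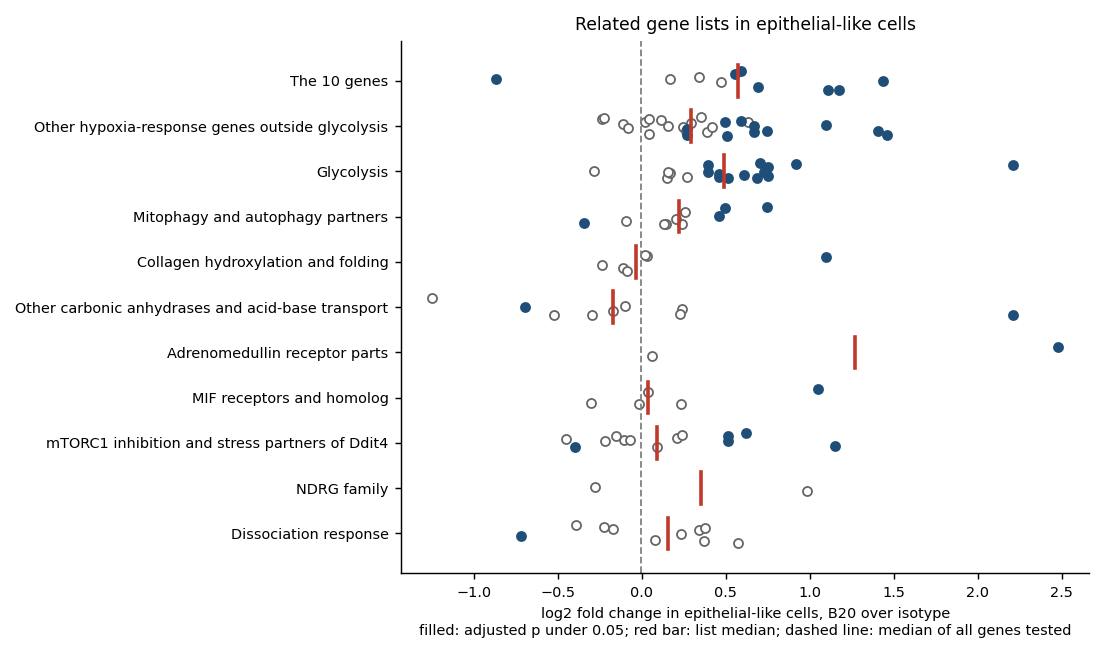
Log2 fold change of B20 over isotype in epithelial-like cells (horizontal axis) for every tested gene of the 10 members and of each related list (1 point per gene, filled where the adjusted p is under 0.05), with the list median as a red bar and the median of all genes tested as a dashed line. The members, the other hypoxia-response genes and the glycolysis genes have medians of 0.57, 0.29 and 0.49, while collagen folding and acid-base transport have medians of -0.03 and -0.18.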

How the data were processed

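UMI counts were deposited by the authors as filtered gene-by-cell matrices for each tumor, written by Cell Ranger 6.1.2 per the file headers and aligned to mm10 per the labels; the submitters' notes also name bcl2fastq and Seurat 4.3.0. Cells of 3 tumors per pool had been separated by multiplexing oligos (4 per tumor), and 84.3% to 97.6% of oligo counts belonged to the cell's own tumor. The study's lower limit of 2500 UMIs and its upper limit were applied, with a mitochondrial limit of 20% chosen here. The study's housekeeping-gene filter was not applied, and no doublet caller was run. A cell entered a class with at least 4 own markers detected (3 for NK and dendritic), at most 3 epithelial markers where it was not epithelial and at most 2 of any other class (T-like cells could carry NK markers), limits set after the marker distributions were seen, and 91.6% of kept cells were assigned. Shares and intervals cover counting error only.

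UMIs were summed per tumor and class (at least 20 cells) and tested with edgeR 4.0.16 in R 4.3.3 (TMM, filterByExpr, quasi-likelihood F test, two-sided, Benjamini-Hochberg over all genes tested, threshold 0.05). Between-class tests had the tumor as a block. Levels are UMIs per 10000 UMIs of the class in that tumor. For groups of over 5 tumors the lowest and highest are given, in many cases with the median. Alternatives were DESeq2 1.42.0, library size alone, no filter on low counts, limma 3.58.1 voom with the pool as a random block, sums per pool, each pool left out, thinning to 2500 UMIs per cell, a minimum of 1000 UMIs, a limit of 10% mitochondrial UMIs, Leiden clusters (scanpy 1.11.5) named by the same markers, a stricter gate, and, added after seeing the data, the 3 T-rich tumors left out. In counts simulated for the epithelial comparison over 12220 genes, 91% of genes changed by 1 and 97% of those changed by 2 on the log2 scale were recovered. The simulated tumors were drawn independently with no pool effect. These rates therefore do not describe data whose pools differ, as the pools here did. Members and lists were chosen with earlier results of these data known, so no p was adjusted over a list. All members are named, and from each list up to 4 genes called in epithelial-like cells, by size of change. Tpi1 and Sesn3 are named beyond this limit. Gene positions are from GENCODE vM21 (GRCm38) and upstream sequences from RefSeq.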

Additional observations from a re-analysis of the deposited data

Results flagged for a closer look

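A tumor was looked at again where it lay far from the rest of its group, judged by its gap to the nearest other tumor as a share of the group's range. Among 51 groups of 6 to 9 tumors with at least 30 UMIs, 3 values stood out, and chance alone flags about 1 in 20 groups. Car12 in epithelial-like cells of B20 pool 3 tumor 1 was 0.256 UMIs per 10000 (311 UMIs in 1002 cells), below the 0.480 to 0.663 of the other B20 tumors. Ddit4 stood out in B20 pool 3 tumor 3 in both leukocyte classes. In its macrophage-like cells the level was 0.366 UMIs per 10000 against 0.0467 to 0.193 in the other B20 tumors, from 31 UMIs. In its T-like cells it was 0.674 against 0.144 to 0.371, from 19 UMIs in 48 cells. In epithelial-like cells the same tumor was not set apart for Ddit4.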

How the results depend on the processing

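No paired analysis was possible because each pool held 1 treatment and the labels number no replicates (the pool numbers here only follow sample order). In epithelial-like cells, Bnip3, Gabarapl1 and Ankrd37 were called in 15 of 16 alternatives, the exception being sums per pool. Members called fell from 7 to 3 with the pool as a random block and to 0 with sums per pool. The number of genes called there, 1840, was 40 with the random block, 0 with sums per pool, 1017 after thinning, and 413 to 5475 with a pool left out (lowest without isotype pool 1, highest without isotype pool 2). With library size alone the median log2 fold change of all genes was -0.09 here, against -0.01, and -0.14 in T-like cells, against 0.01.

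In macrophage-like cells the 3 calls became 37 with DESeq2, 35 without the filter, 0 with the random block and with sums per pool, 12 after thinning, 5 with a minimum of 1000 UMIs, 1 with clusters, 1 with the stricter gate, 0 without the T-rich tumors and 0 to 495 with a pool left out. Members called there were 2 with DESeq2, 2 without the filter and 0 to 1 with a pool left out. In T-like cells the 1 call became 57 with DESeq2, 4 with clusters, 3 without the T-rich tumors, 0 with library size alone, without the filter, with the random block, with sums per pool, after thinning and with a minimum of 1000 UMIs, and 0 to 346 with a pool left out. Members called in T-like cells were 0 to 1 with a pool left out. After thinning, 1 of 2 members tested was called between macrophage-like and T-like cells, against 5 of 7. The comparison of treatment effects called 8 genes, and 0 to 79 with a pool left out.

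Values near 0 changed sign. Ddit4 in macrophage-like cells, -0.05, became 0.064 with the random block, 0.021 with sums per pool, 0.29 with clusters, 0.031 with the stricter gate, 0.060 without the T-rich tumors and -0.47 to 0.23 with a pool left out. Gabarapl1 in macrophage-like cells, -0.01, became 0.026 with a minimum of 1000 UMIs, 0.015 with at most 10% mitochondrial UMIs, 0.066 with clusters and -0.090 to 0.055 with a pool left out. Ddit4 in T-like cells, 0.28, ranged from -0.26 to 0.81 with a pool left out. The cause of these changes was not tested. Adm, Car9 and Car12 had too few UMIs for the main test in macrophage-like cells, so their treatment differences there were not tested in that fit. Alternatives that kept them did not call them. The log2 difference was 0.51 to 0.61 for Car9 in 3 alternatives, and in 1 alternative each -1.22 for Car12 and 0.032 for Adm.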
